A study of Mus musculus with 2 samples.

Results

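The genes described here carry lipid into, through and out of cells of the mouse aorta. They are 10 genes chosen by name from 32285 measured ones: the uptake receptors Cd36 and Msr1, the secreted lipase Lpl, the fatty acid carriers Fabp4 and Fabp5, the droplet coat gene Plin2, the hydrolases Lipa and Nceh1, and the sterol exporters Abca1 and Abcg1. Their levels were read in cell types gated on marker genes, and macrophages were then split by whether at least 2 of 4 further genes, Gpnmb, Cd5l, Trem2 and Atp6v0d2, were detected in a barcode. Gpnmb, Cd5l and Trem2 are known from lipid-loaded macrophages and Atp6v0d2 encodes a proton pump subunit. None of the 4 is among the 10.

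Aortic cells of ApoE-/- mice had been profiled by droplet single-cell RNA sequencing (Chromium 3' v3 chemistry), in a sample titled MSC_ITGB3 and a sample titled HFD, each with an age label of 20 weeks. The series text describes mice fed HFD, with or without MSC_ITGB3 treatment, and asks how the cell types of the aorta vary. Both groups lack apolipoprotein E, a ligand that clears lipoproteins from blood, and mice of this genotype are widely used as a model of atherosclerosis. The labels do not give the sex, the number of mice pooled, the dose or the course of the treatment, or whether the samples came from separate animals. Counts came as 2 libraries told apart by the ending of the barcode, and nothing ties either library to a sample. They are called library 1 and library 2, and no difference between them can be read as an effect of the treatment. With 1 library for each sample there is no replicate and no test: brackets give exact 95% intervals, Poisson for levels and ratios and binomial for shares, that cover counting error only.

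A macrophage in the vessel wall takes up lipoprotein particles through scavenger receptors such as those encoded by Msr1 and Cd36, and Cd36 also takes up long-chain fatty acids. Lysosomal acid lipase, the product of Lipa, frees cholesterol and fatty acids from the swallowed particles, Soat1 re-esterifies the cholesterol for storage in droplets coated by perilipin 2 (Plin2), and neutral hydrolases such as the one encoded by Nceh1 release it again. Abca1 and Abcg1 then pass cholesterol to acceptor particles outside, and both are induced by the sterol-sensing receptors LXR alpha (Nr1h3) and LXR beta (Nr1h2). Cells in which storage outpaces release fill with droplets and are called foam cells.

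Library 1 held 110257209 unique molecular identifiers (UMIs, each standing for 1 captured RNA molecule) and library 2 held 124266676. A barcode was kept at 3000 or more UMIs and at most 20% mitochondrial UMIs, which left 6332 barcodes with a median of 8746 UMIs in library 1 and 6540 with a median of 6031 in library 2. The marker gate named 5588 (88.3%) and 5783 (88.4%) of them, among them 346 macrophages in library 1 and 287 in library 2. All 10 macrophage markers were at least 2-fold above other gated barcodes in both libraries, at a summed level of 16040 against 153.8 CPM (a gene's UMIs over all UMIs summed across the barcodes concerned, scaled as CPM usually is) in library 1 and 16460 against 176.7 CPM in library 2. The pericyte gate was weaker: 4 of 6 markers in library 1 and 2 of 6 in library 2 were 2-fold above other gated barcodes, so that class is called pericyte-gated. The markers compared are those that define each gate, so these levels describe the gated barcodes and are no independent check of their identity. Barcode sequences shared by the libraries numbered 17 among those kept and 0 among macrophages. Transcripts of the targeted gene Apoe stood at 13.3 CPM in macrophages of library 1 and 7.497 CPM in those of library 2, and a 3' tag outside the deleted segment checks nothing.

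In both libraries macrophages held the highest level of 8 of the 10 genes among the 9 cell types with at least 20 barcodes in each library. The share of all genes that were highest in macrophages was not computed. At a threshold of 2-fold above all other gated barcodes, 9 of 10 were called in library 1, where 11.7% of all genes with 30 or more UMIs were, and 9 of 10 in library 2, where 13.2% were. The gene not called was Fabp4 both times. The median log2 ratio of the 10 was 3.90 in library 1 and 3.84 in library 2, beside -0.43 and -0.39 over all genes tested, and 0 of 10 were 2-fold lower, where 34.6% and 34.2% of genes were. Scaling by the trimmed mean of M-values (TMM) raises log2 ratios of this comparison by 0.32 and 0.26, and those of split-positive over other macrophages by 0.23 and 0.21, a shift common to all genes that bears on every ratio given here.

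**Figure D1:**
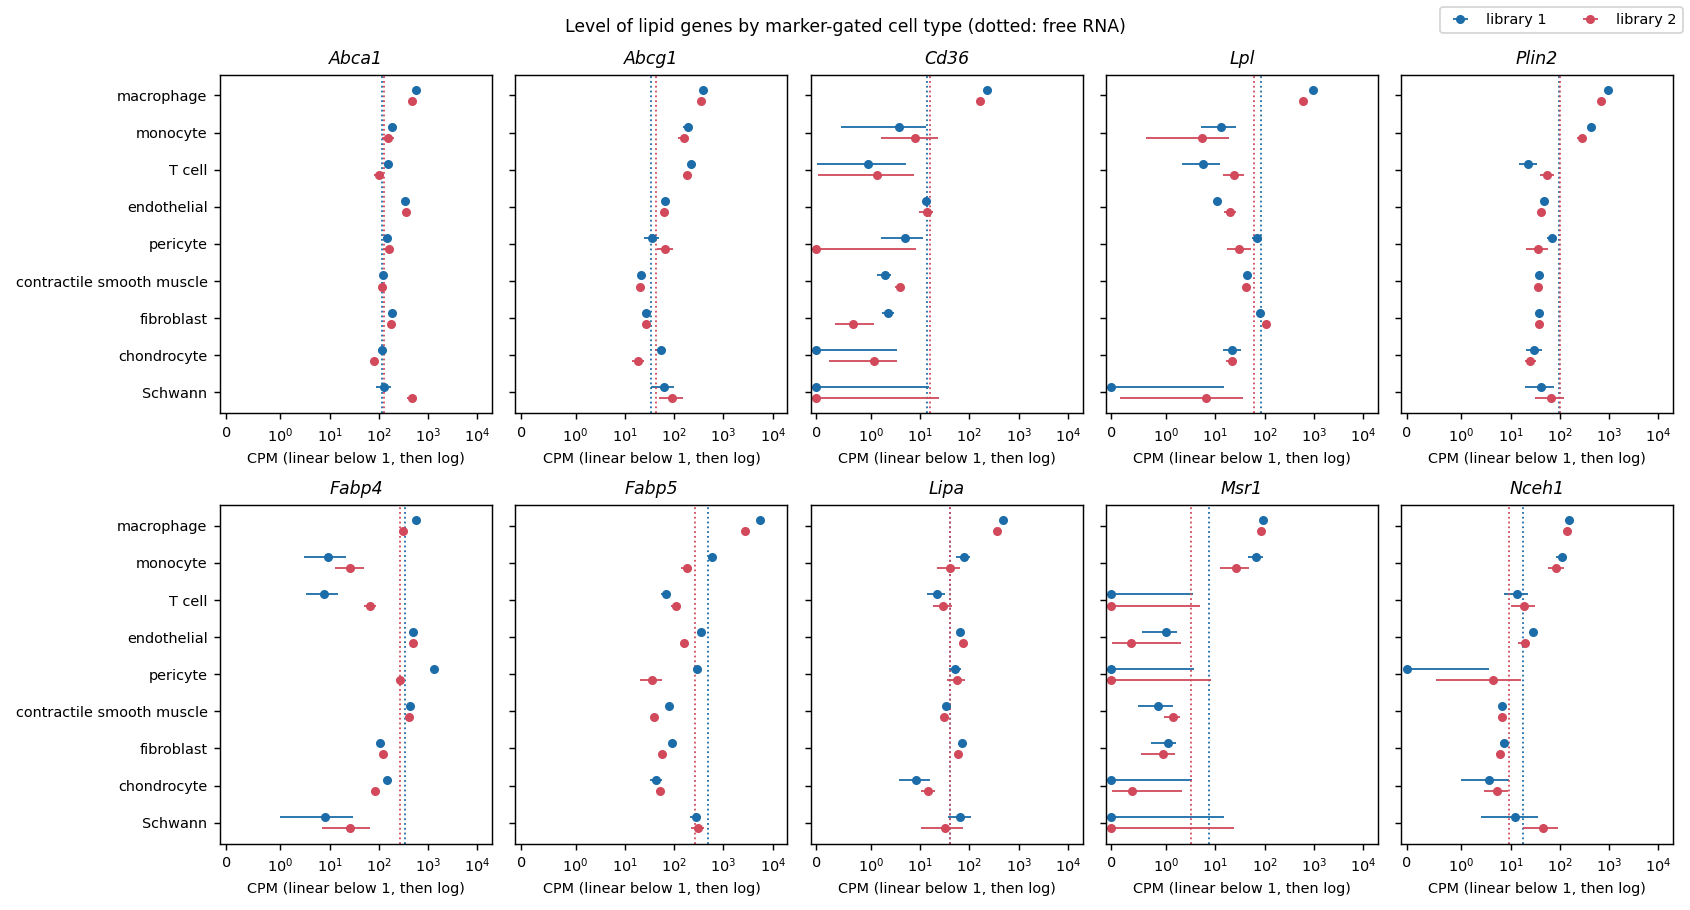
Level of each of the 10 genes (CPM, linear below 1 and then logarithmic) in 9 marker-gated cell types, with 95% Poisson intervals, in library 1 (blue) and library 2 (red); dotted lines mark the level in free RNA. Macrophages stand to the right of every other type for Cd36, Lpl, Plin2, Fabp5 and Lipa, while Fabp4 is spread over macrophages, endothelial, smooth muscle and pericyte-gated barcodes.

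Among the uptake genes, Cd36 was far higher in macrophages than in any other gated type. It stood at 233.0 CPM (220.2 to 246.3) in macrophages against 4.711 CPM in all other gated barcodes of library 1, and at 165.2 CPM (151.5 to 179.9) against 3.068 CPM in library 2, ratios of 49.45 and 53.85. Free RNA, taken from droplets of 10 to 100 UMIs, held 14.13 and 15.58 CPM. The next type was endothelial, at 13.02 CPM (11.25 to 14.99) in library 1 and 13.57 CPM (9.601 to 18.62) in library 2, which overlaps the free RNA. Endothelial Cd36 was not spread evenly. The 10 barcodes with the most of its UMIs held 73.1% of them in library 1 and 100% in library 2. Single endothelial barcodes reached 1744 and 1047 CPM. T cells held 0.9462 and 1.338 CPM.

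Msr1, which encodes scavenger receptor A, stood at 91.21 CPM (83.29 to 99.68) in macrophages against 1.491 CPM in other gated barcodes of library 1, and at 83.71 CPM (73.99 to 94.36) against 1.259 CPM in library 2, ratios of 61.17 and 66.5. Monocytes came next at 67.0 CPM (46.92 to 92.75) in library 1, which overlaps macrophages, and at 26.49 CPM (12.7 to 48.72) in library 2, which does not. T cells gave 0 UMIs in 163 and 112 barcodes, which allows up to 2.839 and 4.015 CPM at 3 counts. Msr1 RNA in fibroblasts (1.108 and 0.9437 CPM), smooth muscle and endothelial barcodes was below the level of free RNA (7.508 and 3.245 CPM).

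Lpl, the lipase that frees fatty acids from triglyceride-rich lipoproteins, reached 951.4 CPM (925.5 to 978.0) in macrophages against 48.57 CPM in other gated barcodes of library 1, and 597.2 CPM (570.8 to 624.6) against 61.17 CPM in library 2. Fibroblasts followed at 81.13 CPM (77.53 to 84.86) and 104.8 CPM (100.1 to 109.6), against 84.79 and 59.71 CPM in free RNA. After every barcode was thinned to 3000 UMIs, 46.0% of macrophages, 16.5% of fibroblasts and 2.45% of T cells of library 1 had an Lpl UMI, and in library 2 the shares were 36.6%, 22.1% and 2.68%. Before thinning they were 60.4%, 31.1% and 3.68% in library 1 and 54.0%, 34.5% and 4.46% in library 2. Fibroblasts thus stood above T cells. The median depth was 7114 UMIs in fibroblasts and 5185 in T cells of library 1, and 5182 and 4991 UMIs in those of library 2. Gpihbp1, the endothelial anchor that carries LPL to the capillary lumen, gave 39 UMIs (2.63 CPM) in endothelial barcodes of library 1 and 2 UMIs (0.7141 CPM) in those of library 2, and the LPL inhibitor Angptl4 stood at 126.0 and 112.4 CPM in fibroblasts, 339.4 and 156.0 CPM in Schwann barcodes and 14.23 and 11.25 CPM in macrophages.

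Fabp5, a carrier of fatty acids in the cytosol, stood at 5421 CPM (5359 to 5484) in macrophages against 157.6 CPM in other gated barcodes of library 1 and at 2807 CPM (2749 to 2865) against 54.74 CPM in library 2. Monocytes were next in library 1 at 599.3 CPM. Schwann barcodes were next in library 2, at 299.0 CPM (218.9 to 398.9), and their 274.0 CPM (212.4 to 348.0) in library 1 lay within counting error of that. Free RNA held 488.4 and 264.8 CPM of Fabp5, above the level of endothelial barcodes (346.3 and 157.8 CPM), fibroblasts, smooth muscle and T cells. A processed pseudogene of Fabp5 is annotated outside the list of counted genes, so how reads shared with it were counted is uncertain.

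Fabp4, the carrier known from fat cells, capillary endothelium and lipid-loaded macrophages, was shared by several types. Macrophages held 564.1 CPM (544.2 to 584.6) against 315.6 CPM in other gated barcodes of library 1, and 308.0 CPM (289.1 to 327.8) against 279.7 CPM in library 2. Both ratios, 1.788 and 1.101, turned below 1 when barcodes were thinned to 3000 UMIs (log2 -0.07 and -0.90). Endothelial barcodes held 482.6 and 496.6 CPM, and smooth muscle 435.7 and 403.7 CPM. Pericyte-gated barcodes held 1342 CPM (1272 to 1415) in library 1 and 262.6 CPM (217.5 to 314.2) in library 2.

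How Fabp4 was spread within a type differed between those types. Thinned to 3000 UMIs, 54.8% and 54.0% of smooth muscle barcodes had a Fabp4 UMI, 33.5% and 29.9% of endothelial ones, and 26.9% and 16.0% of macrophages, against 1.84% and 5.36% of T cells (unthinned, 77.3% and 72.9%, 45.9% and 44.3%, 35.8% and 21.6%, and 4.29% and 7.14%). Smooth muscle had a median of 270.4 CPM per barcode in library 1 and 263.1 CPM in library 2. Endothelial barcodes had a median of 0 in both, with single barcodes reaching 14160 and 11860 CPM. Within thinned endothelial barcodes of library 1, Fabp4 was found in 82.1% of those with a Cd36 UMI (23 barcodes with both genes, 5 with Cd36 alone) and in 32.1% of those without, and in library 2 in 75% (3 with both, 1 with Cd36 alone) and 29%. Free RNA held 344.9 and 262.2 CPM of Fabp4, and its part in the endothelial and smooth muscle levels was not tested.

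Plin2 stood at 968.9 CPM (942.6 to 995.6) in macrophages against 46.1 CPM in other gated barcodes of library 1 and at 677.5 CPM (649.3 to 706.6) against 39.69 CPM in library 2. Monocytes followed at 428.0 CPM (374.5 to 487.1) and 278.2 CPM (227.5 to 336.8), well above free RNA (95.83 and 99.29 CPM). Endothelial, smooth muscle, fibroblast and chondrocyte barcodes lay between 25.35 and 48.43 CPM in the libraries, below free RNA. Another droplet coat gene, Plin4, ran the other way, with 101.0 and 95.48 CPM in smooth muscle and 2.622 and 2.187 CPM in macrophages.

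Lipa, encoding lysosomal acid lipase, stood at 492.2 CPM (473.6 to 511.4) in macrophages against 55.62 CPM in other gated barcodes of library 1 and at 359.2 CPM (338.8 to 380.6) against 42.52 CPM in library 2. The next levels were 76.3 CPM (54.76 to 103.5) in monocytes of library 1 and 73.19 CPM (63.51 to 83.93) in endothelial barcodes of library 2. Nceh1, a hydrolase of cholesteryl esters outside the lysosome, reached 151.0 CPM (140.7 to 161.7) in macrophages against 13.33 CPM in library 1, and 137.8 CPM (125.2 to 151.2) against 8.025 CPM in library 2. Monocytes held 109.8 CPM (83.59 to 141.6) and 84.78 CPM (57.99 to 119.7) of Nceh1, overlapping macrophages in library 1 and not in library 2.

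Abca1 was found in many types. It stood at 555.5 CPM (535.7 to 575.9) in macrophages against 195.9 CPM in other gated barcodes of library 1 and at 463.2 CPM (440.0 to 487.4) against 153.7 CPM in library 2, ratios of 2.835 and 3.014. Endothelial barcodes held 337.2 CPM (327.9 to 346.6) and 359.9 CPM (338.0 to 382.8), and fibroblasts 181.4 and 180.2 CPM, both above free RNA at 113.5 and 129.8 CPM. Schwann barcodes differed between the libraries, with 126.8 CPM (86.14 to 180.0) in library 1 and 474.5 CPM (372.0 to 596.7) in library 2, from 56 and 25 barcodes.

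Abcg1 was more restricted to macrophages than Abca1 and reached into lymphocytes. It stood at 388.1 CPM (371.5 to 405.1) in macrophages against 40.71 CPM in other gated barcodes of library 1 and at 356.1 CPM (335.7 to 377.4) against 29.72 CPM in library 2. T cells came next at 216.7 CPM (189.5 to 246.6) and 183.4 CPM (153.9 to 216.8), overlapping monocytes at 188.0 and 156.3 CPM. Thinned, 44.2% and 34.8% of T cells had an Abcg1 UMI, against 5.67% and 6.31% of smooth muscle barcodes (unthinned, 61.3% and 54.5% against 17.5% and 14.2%). Free RNA held 34.45 and 42.18 CPM.

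Abca1 is the member whose control by sterols is best known, and Nceh1 acts a step before it, so the 250 bases upstream of their starts are printed to show which letters lie there. RefSeq promoter sequences on GRCm38.p6 were at hand for 5 of the 10 genes. Capitals mark matches, on either strand, to 3 motifs: a direct repeat of the half-sites GGTNA and GGTCA with any 5 letters between them, a form of the element that LXR with its partner RXR binds, the E-box CACGTG, and TATAAA. Abca1 lies on the minus strand of chromosome 4 (chr4:53159896-53160145 for the window), and Nceh1 on the plus strand of chromosome 3 (chr3:27182754-27183003).
Abca1: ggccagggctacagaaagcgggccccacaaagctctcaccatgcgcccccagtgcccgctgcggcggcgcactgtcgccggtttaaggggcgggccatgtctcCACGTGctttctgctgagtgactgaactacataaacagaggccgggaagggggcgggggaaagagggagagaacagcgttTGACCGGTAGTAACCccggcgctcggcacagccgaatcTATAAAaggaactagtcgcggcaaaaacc
Nceh1: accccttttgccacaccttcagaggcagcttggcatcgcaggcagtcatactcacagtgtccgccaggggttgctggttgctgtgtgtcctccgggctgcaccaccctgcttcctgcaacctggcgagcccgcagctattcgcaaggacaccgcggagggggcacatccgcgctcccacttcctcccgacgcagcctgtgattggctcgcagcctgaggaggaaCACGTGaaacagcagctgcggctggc
The Abca1 window holds the E-box 147 to 142 bases upstream of the start, the direct repeat as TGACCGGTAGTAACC 67 to 53 bases upstream, and TATAAA 29 to 24 bases upstream. The Nceh1 window holds the E-box alone, 26 to 21 bases upstream. Of the other windows, Lipa holds TATAAA on the opposite strand 239 to 234 bases upstream, and Cd36 and Plin2 hold none of these motifs. The Cd36 window (chr5:17835897-17836146) lies well inside the span of the gene given below, upstream of an internal start, and the outer end of the gene was not read. Among 32851 such windows of the mouse, 0.177% hold the direct repeat, 6.02% the E-box and 12.4% the TATA box. The Abca1 match to the direct repeat depends on the open letter of GGTNA, since that half-site reads GGTTA on the opposite strand. The share of windows with the repeat is thus no test of that match. A match describes the letters and says nothing of binding in these cells.

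On GRCm38 (GENCODE vM21), Abca1 spans positions 53030787 to 53159895 of chromosome 4 and Plin2 86648386 to 86670060 of the same chromosome. Chromosome 3 holds 3 of the genes, Fabp5 at 10012548 to 10016607, Fabp4 at 10204088 to 10208576 and Nceh1 at 27182965 to 27284608, where the RefSeq start used for the promoter lies slightly inside the GENCODE span. Chromosome 8 holds Msr1 at 39581685 to 39642673 and Lpl at 68880491 to 68907448. Cd36 lies on chromosome 5 at 17781690 to 17888801, Abcg1 on chromosome 17 at 31057675 to 31117988 and Lipa on chromosome 19 at 34492318 to 34527474. Fabp4 and Fabp5 are thus near neighbours, and their levels over cell types differed as described above.

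Within macrophages, the split set apart barcodes with far more fatty acid carrier RNA. The split-positive barcodes numbered 178 of 346 (51.4%, 46.0 to 56.8) in library 1 and 91 of 287 (31.7%, 26.4 to 37.4) in library 2. Among all other gated barcodes, 3.55% and 2.75% met the same condition, and among T cells 0 of 163 (upper limit 2.24%) and 1 of 112 (0.893%) did. In split-positive macrophages, against other macrophages, 8 of the 10 genes were at least 2-fold higher in library 1, where 3.97% of genes tested were, and 7 of the 10 in library 2, where 3.18% were. The median log2 ratio of the 10 was 1.31 and 1.07, beside -0.23 and -0.20 over all genes tested. All 10 ratios lay above 1 in both libraries, and the share of all genes with a ratio above 1 was not computed. At least 2-fold lower were 0 of the 10, where 11.8% and 9.23% of genes were. Split-positive barcodes were deeper, with medians of 17174 against 7980 UMIs in library 1 and 10995 against 7453.5 UMIs in library 2.

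**Figure D2:**
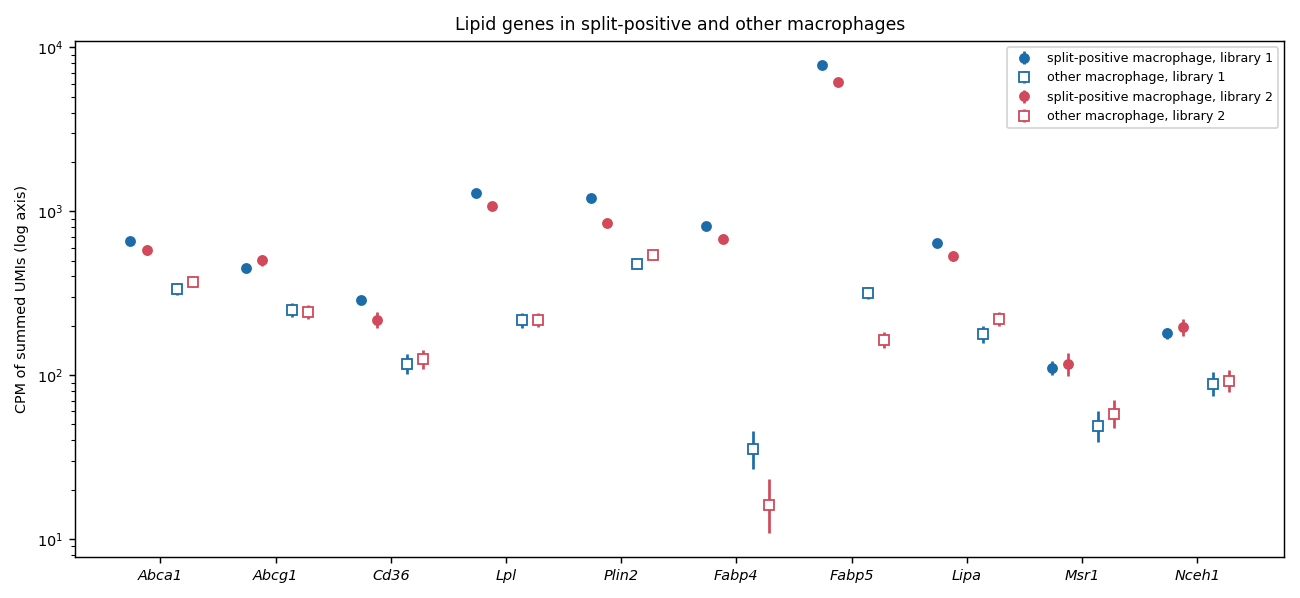
Level of each gene (CPM of summed UMIs, logarithmic axis, 95% Poisson intervals) in split-positive macrophages (filled circles) and other macrophages (open squares) of library 1 (blue) and library 2 (red). Every filled circle lies above the open squares of its gene, from a ratio of 1.563 for Abca1 in library 2 to 42.04 for Fabp4 in library 2.

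Fabp5 stood at 7811 CPM in split-positive macrophages against 317.6 CPM in other macrophages of library 1, a ratio of 24.59 (22.59 to 26.82). In library 2 the levels were 6173 against 164.5 CPM, a ratio of 37.53 (33.41 to 42.29). Other macrophages thus lay below the free RNA of their own library, 488.4 and 264.8 CPM.

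Fabp4 followed the same pattern, at 811.9 against 35.23 CPM in library 1 (ratio 23.05, 17.85 to 30.28) and 679.8 against 16.17 CPM in library 2 (42.04, 29.08 to 63.12). Its level in other macrophages was likewise below free RNA, at 344.9 and 262.2 CPM. The fat cell markers Adipoq, Retn, Car3, Pck1, Lep, Slc7a10 and Acvr1c gave 0 UMIs in split-positive macrophages of both libraries, and no barcode was gated as a fat cell.

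Lpl stood at 1296 CPM in split-positive macrophages against 216.7 CPM in other macrophages of library 1 (ratio 5.98, 5.378 to 6.667) and at 1082 against 216.9 CPM in library 2 (4.988, 4.459 to 5.59). Lipa stood at 639.7 against 177.3 CPM in library 1 (3.608, 3.199 to 4.081) and at 534.9 against 221.3 CPM in library 2 (2.416, 2.137 to 2.736). Fabp5, Fabp4 and Lipa passed 2-fold in both libraries, as did Lpl, with intervals that lay above 2.

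The other 6 genes lay near the threshold. Plin2 stood at 1199 against 477.3 CPM (2.512, 2.33 to 2.711) in library 1 and at 852.4 against 540.3 CPM (1.578, 1.448 to 1.719) in library 2. Cd36 stood at 287.4 against 116.8 CPM (2.46, 2.112 to 2.877) and at 216.6 against 124.9 CPM (1.735, 1.455 to 2.07). Msr1 stood at 111.1 against 48.73 CPM (2.28, 1.796 to 2.924) and at 116.5 against 57.99 CPM (2.009, 1.562 to 2.594). These receptors and the droplet coat were thus higher in split-positive barcodes by a smaller factor than the carriers.

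Nceh1 stood at 180.1 against 88.66 CPM (2.032, 1.7 to 2.442) in library 1 and at 196.0 against 92 CPM (2.131, 1.751 to 2.6) in library 2. Abca1 stood at 658.1 against 336.4 CPM (1.956, 1.785 to 2.147) and at 580.3 against 371.3 CPM (1.563, 1.409 to 1.734). Abcg1 stood at 453.0 against 249.5 CPM (1.815, 1.631 to 2.024) and at 500.8 against 242.5 CPM (2.065, 1.83 to 2.332). Both exporters were thus higher in split-positive macrophages of each library, with every interval above 1.

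The count past 2-fold depended on depth and on how barcodes were weighted. With each barcode thinned to 3000 UMIs, 5 genes passed in library 1, and with the CPM of single barcodes averaged, 5 passed in library 1 and 3 in library 2. The share of all genes passing was computed for the main settings only. RNA of other cell types was present in both kinds of macrophage barcode. Fibroblast markers (10 of 10 detected) summed to 719.2 against 1955 CPM in library 1 and 2093 against 1769 CPM in library 2, and contractile smooth muscle markers (10 of 10) to 299.8 against 1246 CPM and 696.8 against 878.1 CPM. Chondrocyte markers summed to 370.2 against 490.8 CPM and 545.5 against 152.2 CPM, and endothelial markers to 72.33 against 118.0 CPM and 50.43 against 48.51 CPM. Without macrophage barcodes that held 2 or more markers of a non-leukocyte type, 5 of 10 genes passed in library 1, from 54 split-positive and 58 other barcodes, and 1 of 10 in library 2, where only 5 split-positive barcodes were left beside 36 others. In that library 1 set the log2 ratio was 5.09 for Fabp5, 6.46 for Fabp4, 3.05 for Lpl and 0.14 for Cd36. In the library 2 set the large ratios were not found: the log2 ratio was 0.89 for Fabp5 (8 against 35 UMIs), 0.02 for Lpl (5 against 40 UMIs), -0.13 for Plin2, -0.24 for Abca1, 0.58 for Abcg1, 0.02 for Nceh1 and 1.15 for Lipa, which alone passed 2-fold. Cd36 gave 1 UMI against 66, Msr1 0 against 25, and Fabp4 0 on both sides, which allows up to 8.006 CPM over both at 3 counts. The 5 split-positive barcodes left in library 2 thus do not show the ratios given above for genes other than Lipa, the carriers and Lpl included. Macrophages of library 2 as a whole then stood above other gated barcodes by a log2 ratio of 1.07 for Fabp5 and 0.97 for Lpl.

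The number of split genes detected graded the carriers more than the receptors. From 0 to 4 split genes, Fabp5 stood at 290.1, 326.3, 3094, 8222 and 10180 CPM in library 1 and at 183.0, 161.3, 1266, 7541 and 12590 CPM in library 2. Fabp4 was low up to 2 split genes, with 19.67, 40.11, 85.24, 569.5 and 1418 CPM in library 1 and 26.68, 14.37, 32.37, 590.0 and 1894 CPM in library 2. Fabp5 was thus already high with 2 split genes, whereas the step of Fabp4 lay between 2 and 3.

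**Figure D3:**
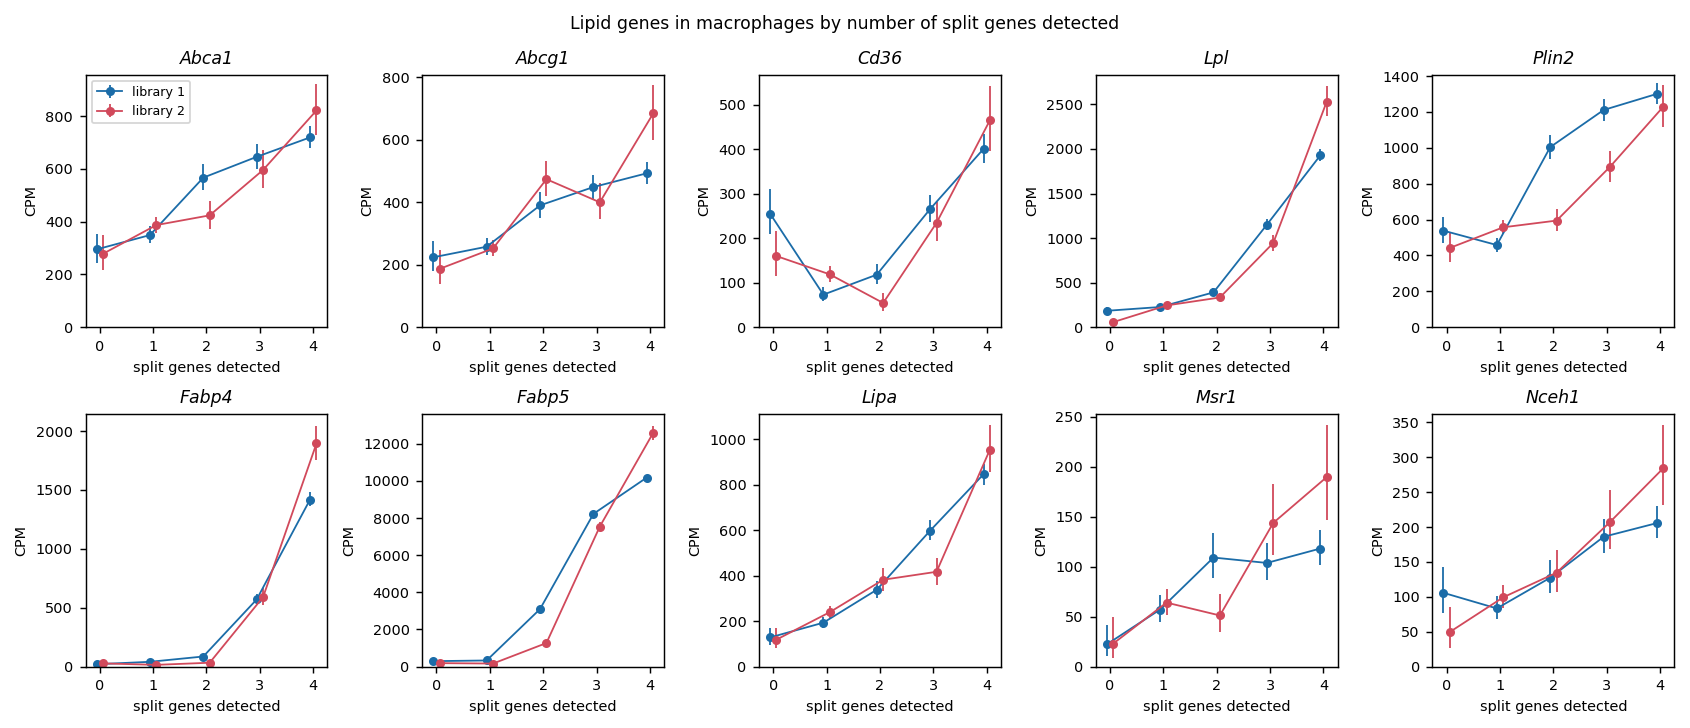
Level of each gene (CPM with 95% Poisson intervals) in macrophages by the number of split genes detected in the barcode, in library 1 (blue) and library 2 (red). Fabp5, Fabp4 and Lpl climb steeply above 1 or 2 split genes, and Cd36 is lowest at 1 or 2.

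Abca1 climbed at each step, at 295.0, 349.4, 567.1, 646.0 and 719.7 CPM in library 1 and 278.3, 387.3, 424.2, 596.3 and 821.8 CPM in library 2. Lpl stood at 184.4, 226.8, 391.0, 1150 and 1927 CPM in library 1 and at 57.18, 244.2, 333.9, 945.3 and 2529 CPM in library 2. Cd36 was not graded: it stood at 255.7, 73.28, 118.2, 265.8 and 401.0 CPM in library 1 and at 160.1, 118.9, 54.52, 234.7 and 465.5 CPM in library 2, so macrophages with none of the split genes held as much as or more than those with 1 or 2. With the split set at 1 or more genes, Cd36 turned to a log2 ratio of -0.15 in library 1. The groups held 43, 125, 67, 55 and 56 barcodes in library 1 and 41, 155, 46, 33 and 12 in library 2, and detection of split genes rises with depth.

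Single barcodes varied widely within the split-positive group. The median of Fabp5 was 4611 CPM with quartiles of 722.8 and 9632 CPM in library 1, and 1381 CPM with quartiles of 117.7 and 8212 CPM in library 2, while the median in other macrophages was 0 in both. For Fabp4 the medians were 77.52 CPM and 0, and the highest barcodes held 10460 and 3798 CPM. Plin2 was more even, with medians of 860.5 against 391.3 CPM in library 1 and 664.7 against 377.1 CPM in library 2.

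**Figure D4:**
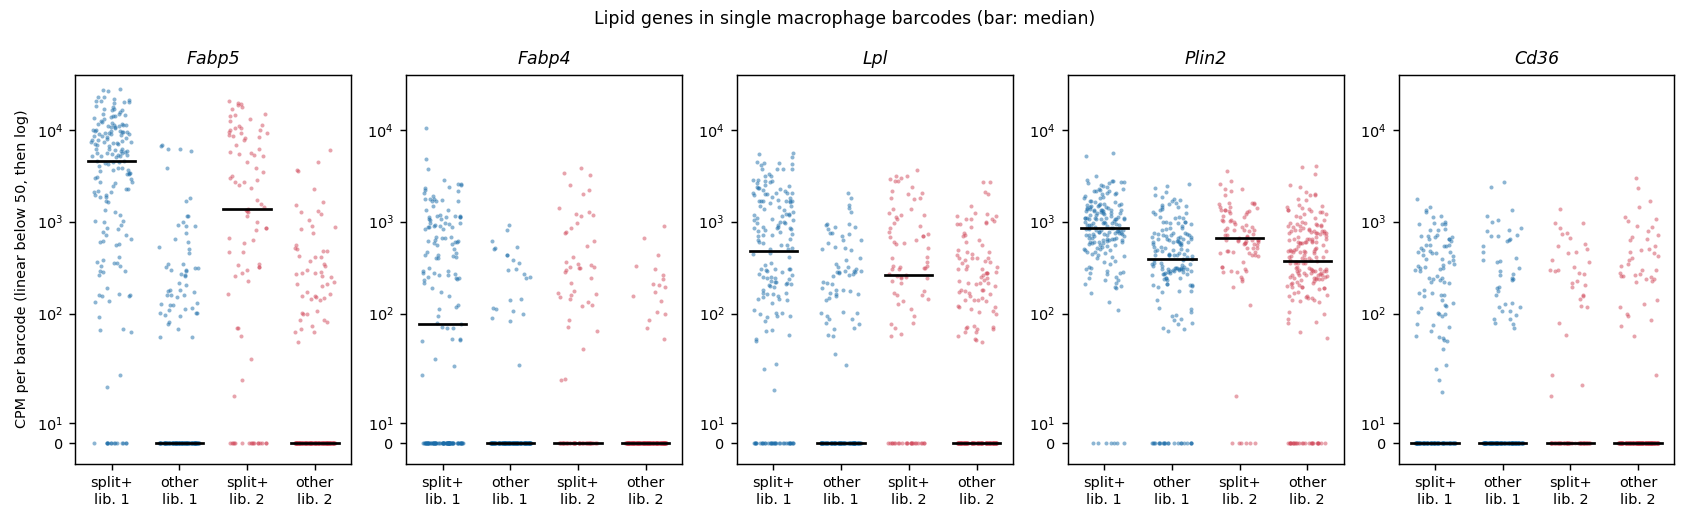
Level of Fabp5, Fabp4, Lpl, Plin2 and Cd36 in single macrophage barcodes (CPM per barcode, linear below 50 and then logarithmic), in split-positive and other macrophages of library 1 (blue) and library 2 (red), with bars at the median. Fabp5 runs from 0 to 27670 CPM in split-positive macrophages of library 1, whereas Plin2 is spread around a median of 377.1 to 860.5 CPM in all 4 groups.

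A few barcodes carried much of the sum in library 2. The 10 barcodes with the most UMIs of a gene held 90.7% of Fabp4, 77.2% of Lpl, 73.1% of Cd36 and 67.7% of Fabp5 UMIs in its 91 split-positive macrophages, against 52.5%, 35.4%, 47.6% and 31.8% in the 178 of library 1. Summed levels in library 2 thus rest on fewer cells.

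The genes tended to be found in the same barcodes. At 3000 UMIs each, split-positive macrophages held a median of 6 of the 10 genes in library 1 and 5 in library 2, against 3 in other macrophages of both, and 7 or more were found in 39.3% and 28.6% against 1.79% and 2.04%. Endothelial barcodes held a median of 2, and smooth muscle, fibroblast and T cell barcodes a median of 1. Among thinned split-positive macrophages, Fabp4 was found in 48.3% of those with Fabp5 and 10.3% of those without in library 1, and in 43.9% and 20.0% in library 2. Cd36 was found in 39.0% of those with Lpl and 11.7% of those without in library 1, and in 30% and 9.76% in library 2. Abca1 and Abcg1 behaved differently in the libraries: Abca1 was found in 76.9% with and 75.4% without Abcg1 in library 1, and in 74.6% and 34.4% in library 2.

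The other genes of lipid handling, taken from fixed lists, moved unevenly with the split. Their counts are to be set against the shares over all genes given above, 3.97% higher and 11.8% lower in library 1 and 3.18% higher and 9.23% lower in library 2. Lysosome genes had 7 of 18 at least 2-fold higher and 0 lower in library 1 and 5 of 18 higher and 0 lower in library 2, at a median log2 ratio of 0.75 and 0.76. The cysteine protease Ctsl stood at 8286 against 567.8 CPM in library 1 and 7367 against 568.1 CPM in library 2, ratios of 14.59 and 12.97. The aspartic protease Ctsd stood at 8118 against 953.5 CPM (8.514) and 7281 against 1197 CPM (6.082), Psap, the precursor of the saposins that assist sphingolipid breakdown, at 6808 against 1343 CPM (5.07) and 5519 against 1097 CPM (5.03), and Ctsb at 8827 against 2407 CPM (3.668) and 8193 against 2623 CPM (3.123). The lysosomal cholesterol exporter genes Npc1 and Npc2 stood at ratios of 2.078 and 1.829 in library 1 and of 1.371 and 1.788 in library 2.

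Genes of sterol efflux and LXR had 6 of 16 higher and 1 lower in library 1, and 5 of 14 higher and 1 lower in library 2, at median log2 ratios of 0.01 and 0.09. Nr1h3 stood at 80.31 against 12.92 CPM (ratio 6.217, 4.029 to 10.08) in library 1 and at 41.2 against 10.04 CPM (4.105, 2.384 to 7.403) in library 2, while Nr1h2 stood at ratios of 0.8598 and 0.8493. Apoc1, a small apolipoprotein, stood at 82.51 CPM against 2 UMIs (1.174 CPM) in library 1, a ratio of 70.26 (19.28 to 582.9), and at 22.73 against 2.23 CPM in library 2, a ratio of 10.19 (3.614 to 39.67). The desaturase Scd1 stood at 58.3 against 15.27 CPM (3.819) and 53.27 against 7.248 CPM (7.35). The LXR targets did not share a direction, since Mylip, which marks the LDL receptor for degradation, stood at ratios of 0.7525 and 0.6329 and Srebf1 at 0.9671 and 1.155. Abca9 was lower, at 7.151 against 21.14 CPM and 5.682 against 18.96 CPM.

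Lipid droplet genes had 2 of 13 higher and 2 lower in library 1, and likewise 2 of 13 higher and 2 lower in library 2, the number lower being near that over all genes. Soat1, which esterifies cholesterol, stood at 229.1 against 79.85 CPM (2.869, 2.391 to 3.465) and 231.6 against 83.08 CPM (2.787, 2.289 to 3.407). The monoglyceride lipase Mgll stood at 83.88 against 5.284 CPM (15.87, 8.253 to 35.05) and 57.53 against 6.133 CPM (9.381, 4.975 to 19.53). The hormone-sensitive lipase Lipe was lower, at 7.426 against 15.85 CPM and 4.262 against 17.84 CPM, and Pnpla2, the first lipase of triglyceride breakdown, stood at ratios of 1.572 and 1.348. Plin1, Plin4 and Cidec, droplet genes of fat cells, gave between 0 and 8 UMIs in any of these groups.

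Scavenger and lipoprotein receptor genes had 4 of 11 higher and 1 lower in library 1 and 2 of 9 higher and 2 lower in library 2. Cd68 stood at 1244 against 473.8 CPM (2.626) and 1129 against 541.4 CPM (2.086), and the mannose receptor gene Mrc1 at 198.0 against 443.9 CPM (0.4461) and 161.2 against 366.3 CPM (0.4402). Both are also markers of the macrophage gate. Lrpap1, the chaperone of the LRP receptors, stood at ratios of 2.021 and 2.32, and the receptor gene Stab1 at 0.6251 and 0.404. Genes of LPL handling had 1 of 7 higher and 1 lower in library 1 and 0 of 6 in either direction in library 2, too few to set apart from the shares over all genes. Those of fatty acid uptake and oxidation had 2 of 15 higher and 0 lower in library 1 and 0 of 12 in library 2, with Pparg at 53.9 against 42.86 CPM and 53.98 against 71.37 CPM. The pathway lists together had 22 genes higher in library 1 and 14 in library 2, and 11 and 9 with barcodes thinned to 3000 UMIs. No share over all genes was computed for thinned barcodes, where fewer UMIs are left to reach the minimum, so the 11 and 9 have no background.

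Between the libraries, 8 of the 10 genes were at a higher level in macrophages of library 1 with an interval above 1. The share of all genes with such an interval was not computed. At 2-fold, 0 of 10 were called in either direction, where 1.91% of all genes tested were higher and 3.17% lower. Fabp5 stood at 5421 CPM in library 1 and 2807 CPM in library 2 (ratio 1.931, 1.886 to 1.978), Fabp4 at 564.1 and 308.0 CPM (1.832, 1.704 to 1.97), and Lpl at 951.4 and 597.2 CPM (1.593, 1.511 to 1.68). Plin2, Cd36 and Lipa stood at ratios of 1.43, 1.41 and 1.37, Abca1 at 1.199, and Abcg1 at 1.09 (1.013 to 1.172). The intervals of Nceh1 (1.096, 0.9745 to 1.234) and Msr1 (1.09, 0.9367 to 1.269) included 1. Removing macrophage barcodes with 2 or more markers of a non-leukocyte type left 112 macrophages in library 1, of which 54 were split-positive. In library 2 it left 41, of which only 5 were split-positive. In that set the log2 ratio was 5.36 for Fabp5 and 2.82 for Lpl, Fabp4 gave 581 UMIs in library 1 and 0 in library 2, and Cd36 turned to -0.18. The share of split-positive macrophages also differed between the libraries, and its part in these ratios was not tested.

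**Figure D5:**
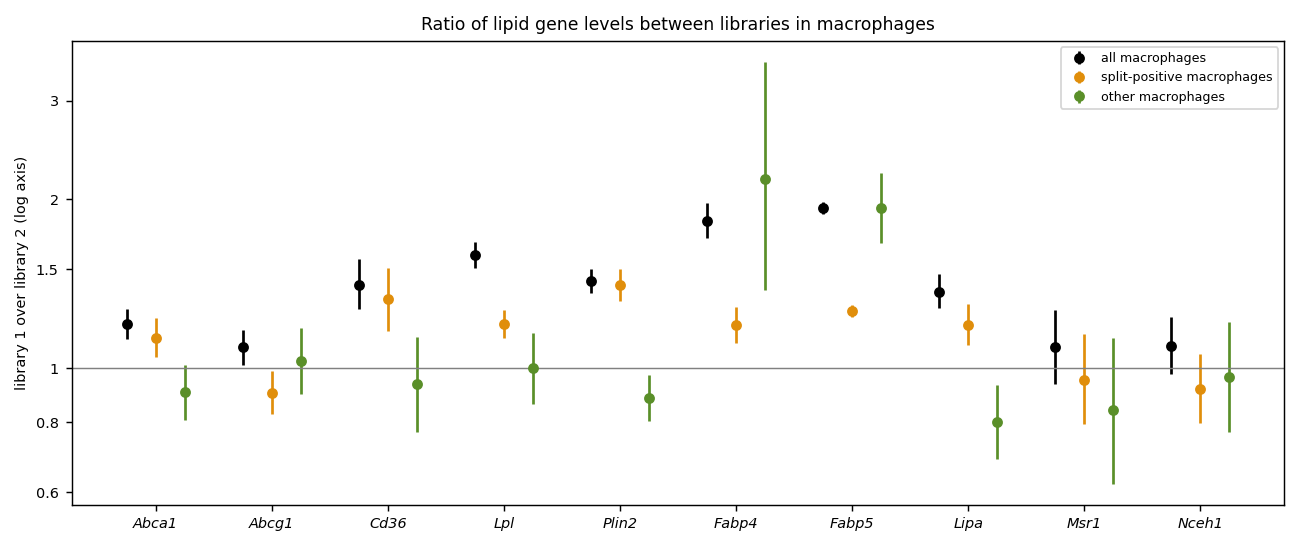
Ratio of library 1 over library 2 (logarithmic axis, 95% intervals) for each gene in all macrophages (black), split-positive macrophages (orange) and other macrophages (green). Within split-positive macrophages the ratios lie between 0.9045 and 1.407.

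Within split-positive macrophages the ratios were smaller for the carriers, at 1.265 (1.235 to 1.296) for Fabp5, 1.194 for Fabp4 and 1.198 for Lpl, while Plin2 kept 1.407 (1.319 to 1.501) and Cd36 1.327 (1.167 to 1.512). Abcg1, Nceh1 and Msr1 stood at 0.9045, 0.9189 and 0.9538. No gene of the set passed 2-fold there, where 2.74% of genes were higher and 3.61% lower. In other macrophages, where 2.77% of genes were 2-fold higher and 1.66% lower, Fabp4 did at 2.179 (1.377 to 3.521) and Fabp5 stood at 1.931 (1.673 to 2.233), and the other 8 genes lay between 0.8011 and 1.029.

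Fabp5 was also at a higher level in library 1 in cell types with no split. It stood at 346.3 CPM in library 1 and 157.8 CPM in library 2 in endothelial barcodes (ratio 2.194, 1.991 to 2.424, where 2.41% of genes were 2-fold higher and 2.88% lower), at 78.63 and 38.14 CPM in smooth muscle (2.061, 1.902 to 2.235, where 1.1% were higher and 3.56% lower) and at 92.34 and 56.23 CPM in fibroblasts (1.642, where 1.4% were higher and 2.88% lower). In smooth muscle the 10 barcodes with the most Fabp5 UMIs held 65.7% of them in library 1 and 28.0% in library 2. The same shares were 15.2% and 50.7% in endothelial barcodes and 28.6% and 34.6% in fibroblasts. The smooth muscle ratio thus rests in large part on a few barcodes of library 1. Free RNA moved in the same direction as Fabp5 in these types, at 488.4 and 264.8 CPM, and its part in these ratios was not tested. Fabp4 did not follow in those types, with ratios of 0.9718 (0.9175 to 1.03) in endothelial barcodes, 1.079 in smooth muscle and 0.8744 in fibroblasts. Lpl was lower in library 1 in endothelial barcodes (0.5499, 0.4036 to 0.7589) and fibroblasts (0.7741, 0.726 to 0.8254). In endothelial barcodes of library 2, 1 barcode held 29 of the 56 Lpl UMIs, so the endothelial ratio rests largely on that barcode. Cd36 passed 2-fold from few UMIs, lower in library 1 in smooth muscle (1.903 and 3.885 CPM, ratio 0.4899, 0.3278 to 0.7188) and higher in fibroblasts (2.217 and 0.6661 CPM, ratio 3.328, 1.753 to 6.85), at levels below free RNA in both. In smooth muscle of library 2, 1 barcode held 67 of the 99 Cd36 UMIs. The call in smooth muscle thus rests on that barcode and describes no difference across the type.

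Across the 11 combinations of library and cell type with 100 or more barcodes, several of the 10 genes followed one another, as a description of points that share libraries and depth and of which 2 are macrophages. Pearson's r of log2(CPM + 5) was 0.983 between Plin2 and Msr1, 0.979 between Fabp5 and Nceh1 and 0.972 between Cd36 and Fabp5, against -0.11 between Fabp4 and Abcg1. Among genes outside the set, those closest to Fabp5 were Ms4a6d (0.982), Atp13a2 and Abcc3 (both 0.977), and those closest to Nceh1 were Ms4a6d (0.985), Aph1c (0.983) and Cd40 (0.979). Fabp4 was closest to Degs1 (0.978), Dusp3 (0.961) and Mtln (0.951). Abca1 was closest to Sh3glb1 (0.976), Sptssa (0.967) and Ankrd33b (0.958), and Lpl to Ipo5, Prdx1 (both 0.975) and Zeb2os (0.973). Abcg1 was closest to Slfn2 (0.996), Sh3bgrl3 (0.99) and Atg2a (0.986), Lipa to Il18bp (0.986), Dmxl2 (0.973) and Mfsd1 (0.971), and Cd36 to Atp13a2 (0.989), Abcc3 (0.982) and Fgr (0.981). Plin2 was closest to Atp6v1c1 (0.991), St18 (0.99) and Arl11 (0.989), and Msr1 to Clec4a2, Cd300ld and Mrc1, a marker of the macrophage gate (all 0.999).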

How the data were processed

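The authors deposited 1 matrix of raw UMI counts per gene and barcode, unfiltered and with no normalization. Per the file headers, Cell Ranger 6.0.1 wrote it. Besides this tool, bcl2fastq, Seurat and the build mm10 are named, per the submitters' processing notes, while no source used here gives the annotation used for counting. The 2 libraries were separated by barcode suffix. How their depth was treated when they were joined is not given, and the suffix is tied to no sample.

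Barcodes of 3000 or more UMIs and at most 20% mitochondrial UMIs were kept. A barcode took the type of which at least 3 markers were detected and whose detected share of markers exceeded that of every other type by at least 0.1, which leaves out many mixed barcodes. No doublet caller was used, and doublets can remain. UMIs were summed per gene, type and library and given as CPM of that sum. A gene entered a count of 2-fold calls at 30 or more UMIs over both sides. For shares and co-detection each barcode was thinned to 3000 UMIs (seed 1). A UMI counts a molecule at its 3' end, so no correction for length was made, and strand use in counting and reads shared between similar genes cannot be checked. Free RNA is the sum of barcodes of 10 to 100 UMIs (65270 in library 1, 39379 in library 2). Intervals are exact Poisson, conditional binomial for ratios and Clopper-Pearson for shares. The 2-fold calls and ratio intervals were checked on simulated Poisson counts of group sums, which hold no variation between barcodes. That check thus does not cover genes whose UMIs lie mostly in a few barcodes. Promoters were read from RefSeq sequences of GRCm38.p6, 250 bases before each start.

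The 10 genes, the gene lists and the split were chosen with earlier results of these data known, and nothing here is independent support for a pattern seen before. All 10 genes are named. From each pathway list, the rule names the 4 genes with the largest mean absolute log2 ratio among those 2-fold in the same direction in both libraries; other genes of the lists were named after their values were seen. For each gene, the 3 genes of highest Pearson correlation over 11 points were named, among genes reaching 50 CPM. Python packages were numpy 2.4.6, scipy 1.17.1 and pandas 2.3.3, figures used matplotlib 3.10.9, and TMM factors came from edgeR 4.0.16 in R 4.3.3. Alternatives were other limits on depth, mitochondrial share, gate, split and UMIs, thinning, equal weight per barcode, removal of mixed macrophage barcodes and TMM scaling. Macrophage barcodes are called mixed if they held 2 or more markers of a non-leukocyte type, whatever the source of those markers. A wider gate margin of 0.2 was added after seeing the data.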

Additional observations from a re-analysis of the deposited data

How the results depend on the processing

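In split-positive against other macrophages, the main counts of 8 genes in library 1 and 7 in library 2 changed by over 1.5 times under 5 settings. Thinning to 3000 UMIs gave 5 in library 1, requiring 1 or more or 3 or more split genes gave 5 each, and equal weight per barcode gave 5 in library 1 and 3 in library 2. Removing macrophage barcodes with 2 or more markers of a non-leukocyte type gave 5 in library 1 and 1 in library 2, where 5 split-positive barcodes were left. In that library 2 set Fabp4 gave 0 UMIs on both sides and Msr1 gave 0 against 25, so neither has a ratio. Pathway genes higher in split-positive macrophages were 22 and 14, or 11 and 9 after thinning, and 2 in library 2 without mixed barcodes. Shares over all genes were computed for the main settings only, so counts under other settings have no background. The share of macrophages passing the split was 51.4% and 31.7%, or 43.5% and 23.8% after thinning, 87.6% and 85.7% at 1 or more split genes, 32.1% and 15.7% at 3 or more, and 12.2% in library 2 without mixed barcodes. Between the libraries, 0 genes passed 2-fold, against 2 after thinning, 3 without mixed barcodes, 2 with equal weight and 1 with TMM scaling. The single reversal of a called value was Cd36 in library 1, at a log2 ratio of -0.15 with 1 or more split genes. Of all log2 ratios of single genes, 254 of 258 were above 0 for the split, 215 of 219 for macrophages over other barcodes and 108 of 109 for the libraries. Settings that change only the minimum of UMIs repeat the main ratios, and TMM scaling raises all ratios of a comparison by a common amount. The tallies thus overstate how far the settings were independent. The cause of these changes was not tested. No paired analysis was possible because each group has 1 sample and the libraries are tied to no sample. Counts of a few UMIs per barcode limit what single barcodes show, and without replicates no spread between animals can be given.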

Other observations

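Neutrophils, which were too few in library 2 for the comparison of cell types, held Plin2 at 594.7 CPM in library 1 (56 barcodes) and 1007 CPM in library 2 (13 barcodes), beside 968.9 and 677.5 CPM in macrophages. Their Abca1 stood at 255.3 and 69.45 CPM. Neutrophils of library 2 held only 57598 UMIs over all genes, so their Abca1 level rests on a few UMIs and the libraries are not compared. Smooth muscle held droplet genes other than Plin2: Plin4 stood at 101.0 and 95.48 CPM there, and Cidea, known from brown fat, at 20.38 and 18.01 CPM, against 0.1873 and 0.3124 CPM in macrophages. Vldlr, the receptor of very-low-density lipoprotein, stood at 53.09 and 53.96 CPM in smooth muscle against 1.686 and 4.685 CPM in macrophages, and Stab1 at 275.6 and 269.2 CPM in endothelial barcodes against 116.3 and 127.1 CPM in macrophages. Pparg, the receptor that controls many of these genes in fat cells, stood at 50.38 and 63.72 CPM in macrophages and at 10.12 and 9.536 CPM in smooth muscle.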
